A study of Mus musculus with 12 samples.

Results

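Combo was compared with vehicle in p53ERTAM tumors, taking the 3 libraries titled as combo and the 3 titled as vehicle with this vector, 6 of the 12 libraries of the series. The tumor, 2153L, came from a genetically engineered mouse model of triple-negative breast cancer, per the labels, and was grown in mammary fat pads of BALB/c females. All 6 libraries came from tumors with p53ERTAM, the tumor suppressor p53 joined to the part of the estrogen receptor that responds to tamoxifen. The combo mice had received ORIN1001, which blocks the RNase of the stress sensor IRE1α, at 150 mg/kg each day, and the taxane docetaxel at 20 mg/kg each week, for 8 days, and the other mice had received vehicle. The other 6 libraries came from tumors with an empty vector (EV), 3 with combo and 3 with vehicle. The labels leave out who received tamoxifen, the age of the mice, how many clones of transduced cells were used, and whether the 3 replicates of a group came from separate mice. P-values therefore measure the spread between these libraries.

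Interferons are secreted proteins that bind receptors on the cell surface and act through JAK kinases and transcription factors such as STAT2 and IRF9 to switch on a large set of genes against viruses. Type I interferons are made when sensors find double-stranded RNA or DNA in the wrong place, and type II interferon comes mainly from T and NK cells. Both also raise the machinery by which cells show peptides to T cells, and macrophages respond to both. In the mammary epithelium, basal cells carry the keratins of Krt5 and Krt14 together with p63, and luminal cells carry those of Krt8 and Krt18.

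The 3 vehicle libraries held 13484873 to 19461986 counts and the 3 combo libraries 21914913 to 24424964, so the groups did not overlap in depth. Vehicle replicate 2 was the shallowest and stood apart in make-up. Protein-coding genes held 86.7% of its counts, against 92.3 and 94.0% in vehicle replicates 1 and 3 and 94.5 to 95.3% in combo. On the first principal component of the 6 libraries (51.6% of the variance) the vehicle replicates lay at -40.0, -72.3 and -7.08 and the combo replicates at 43.0, 26.1 and 50.3. Trp53 stood at 48.4, 49.3 and 56.7 CPM (counts per 1000000, scaled by library size) with vehicle and 57.6, 60.6 and 65.0 with combo, a log2 difference of 0.25 (SE 0.139, edgeR adjusted p = 0.293). Esr1 stood at 29.4, 33.1 and 29.3 CPM with vehicle and 37.0, 38.9 and 36.7 with combo (log2 fold change 0.30, edgeR adjusted p = 0.449). Reads of the fusion gene may be counted in either gene, which was not tested. Mammary epithelial genes were present in every library, with Epcam, an adhesion molecule of epithelia, at 473 to 1016 CPM. Pgr, the progesterone receptor gene, had 4, 2 and 2 counts in the vehicle libraries and 2, 18 and 36 in combo, so the groups overlapped.

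Of 17970 genes tested, 593 (3.30%) were higher and 536 (2.98%) were lower with combo at an adjusted p below 0.05 in edgeR's quasi-likelihood test, 1129 (6.28%) in all. In the text, rose and fell are used of these genes, and fold changes are log2 values of combo over vehicle. Calls counted in gene lists below are to be read against these shares of 3.30% higher and 2.98% lower. The 593 that rose were nearly all protein-coding (571), while 226 of the 536 that fell were not. The 3 combo libraries all lay above the 3 vehicle libraries for 3162 genes (17.6%) and all below for 2764 (15.4%), and 4432 genes had an unadjusted p below 0.05. The number of calls hung on single libraries. Without vehicle replicate 1, 2 or 3 it was 78 higher and 43 lower, 110 and 73, and 984 and 1146. Without combo replicate 1, 2 or 3 it was 63 and 14, 322 and 192, and 79 and 17. The genes called in the full fit and in all 6 of these refits were 57 that rose and 12 that fell, and such genes are called stable here. In the same fit 7169 genes (39.9%) were called for combo in EV tumors.

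Antiviral genes that interferon induces rose almost throughout the list. Of 24 such effectors tested, 21 rose and 0 fell, with a median log2 fold change of 1.43 (range 0.28 to 2.83), where the median over all genes tested was 0.00498. Ifit1, which binds foreign RNA at its 5′ end, was at 6.39, 9.84 and 8.39 CPM in vehicle replicates 1 to 3 and at 44.0, 41.5 and 35.6 in combo replicates 1 to 3. Every combo library lay far above every vehicle library, and the log2 fold change was 2.30 (SE 0.246, edgeR adjusted p = 0.00114). Ifit1 lies at chr19:34640871-34650009 of GRCm38. Usp18, which removes ISG15 from proteins and dampens the type I receptor, went from 5.45, 7.41 and 10.8 CPM to 42.5, 39.9 and 31.0 (2.26, SE 0.332, edgeR adjusted p = 0.00556). Rtp4, an antiviral protein first known as a receptor chaperone, went from 6.64, 8.07 and 10.1 CPM to 33.9, 31.4 and 34.6 (2.01, SE 0.321, edgeR adjusted p = 0.00776). These 3 genes were stable. Isg15, the ubiquitin-like tag itself, had 3.67, 9.69 and 7.69 CPM with vehicle and 19.9, 21.2 and 17.9 with combo. It rose by 1.49 (SE 0.343, edgeR adjusted p = 0.0270), and its groups did not overlap, with vehicle replicate 1 the lowest library.

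The antiviral genes that were not called also lay above 0. Mx2, a dynamin-like GTPase, lay at 1.16 on the log2 scale (edgeR adjusted p = 0.0919), Isg20 at 0.46 and Ifi27 at 0.28. Ifi44 rose from 15.9, 23.6 and 25.4 CPM to 106, 113 and 86.6 (2.24, SE 0.409), and Ifit3b, a close relative of Ifit3 with which it can share reads, by 2.83 (SE 0.488). The number of the 24 called higher was 6, 9 and 20 without vehicle replicate 1, 2 or 3, and 4, 12 and 7 without combo replicate 1, 2 or 3. Isg15 lost its call in each of these but the refit without vehicle replicate 3 (edgeR adjusted p 0.0520 to 0.0954). Ifi44 lost it without vehicle replicate 1 or 2, or without combo replicate 1 or 3 (0.0515 to 0.0684), and Ifit3b without combo replicate 1 (0.0526). In 23 of the 24 the combo libraries all lay above the vehicle libraries, as in 17.6% of all genes tested.

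**Figure D1:**
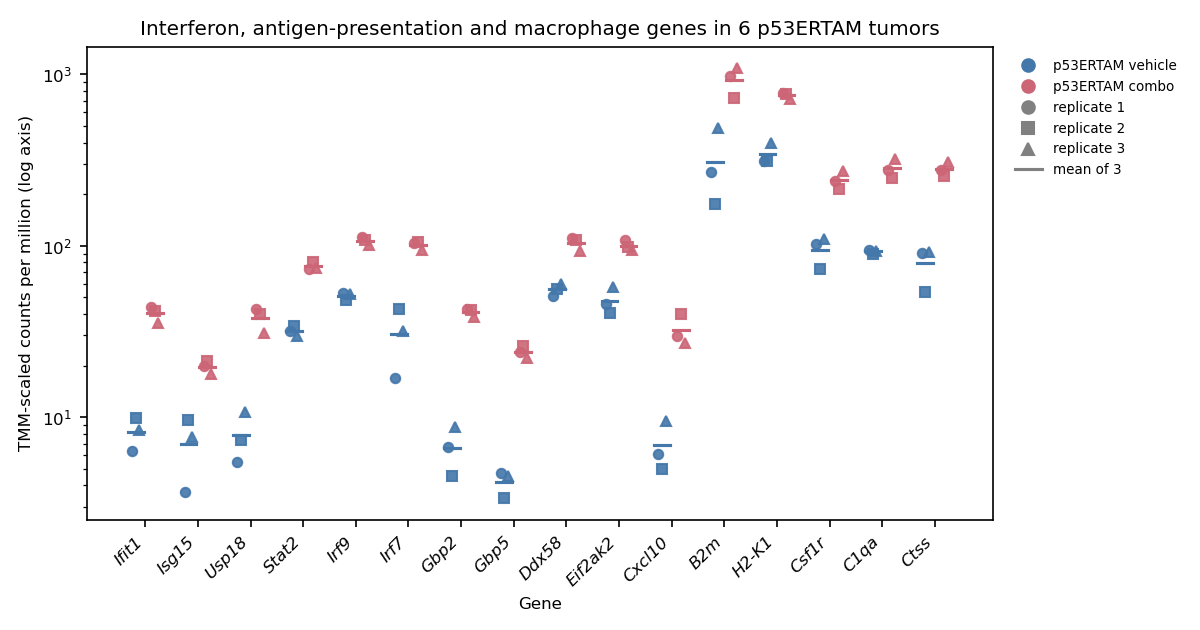
CPM on a log axis for 16 genes of interferon response, antigen presentation and macrophages in the 3 vehicle and 3 combo libraries of p53ERTAM tumors, 1 point per library and a bar for each mean. For each gene every combo point lies above every vehicle point, for Ifit1 at 35.6 to 44.0 against 6.39 to 9.84 CPM.

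The interferons themselves were hardly measured. Ifnb1, the type I interferon made by most cells, had 0 counts in each vehicle library and 4, 0 and 2 counts in combo. Ifng, type II interferon, had 0, 2 and 0 counts with vehicle and 3, 4 and 4 with combo. The 13 type I interferon alpha genes had 1 count in all, and the type III gene Ifnl2 had 2, both in combo libraries. No difference in any ligand was detectable at this depth. The receptor genes differed from each other. Ifnar1, a chain of the type I receptor, stood at 217, 206 and 230 CPM with vehicle and 215, 223 and 230 with combo (log2 fold change 0.03, edgeR adjusted p = 0.923). Its partner Ifnar2 had 0.22 (edgeR adjusted p = 0.632). Ifngr1, the ligand-binding chain of the type II receptor, rose from 40.5, 32.1 and 49.4 to 74.4, 63.9 and 72.0 CPM (0.78, SE 0.148, edgeR adjusted p = 0.0144), and Ifngr2 had 0.14.

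The genes that carry the signal inward rose. Of 21 genes of interferon ligands, receptors and signalling tested, 13 rose and 0 fell (median 0.78). Stat2, a transcription factor of type I signalling, lay between 29.6 and 33.9 CPM in vehicle and between 72.9 and 80.5 in combo, a narrow spread in both groups (1.26, SE 0.140, edgeR adjusted p = 0.0014). Irf9, which guides STAT2 to DNA, rose from 53, 48.4 and 52.2 CPM to 113, 108 and 101 (1.06, SE 0.184). Irf7, which amplifies interferon production, rose from 17.1, 42.7 and 32.1 to 104, 105 and 94.3 CPM (1.73, SE 0.374, edgeR adjusted p = 0.0249). Irf1, a factor induced chiefly by type II interferon, rose by 0.99 (SE 0.183). Stat2 was stable. Irf9 lost its call without vehicle replicate 2 (edgeR adjusted p = 0.0529) or combo replicate 1 (0.0526), Ifngr1 without vehicle replicate 1 or combo replicate 1 or 3 (0.0626 to 0.0768), Irf1 without vehicle replicate 1 or 2, or without combo replicate 1 or 3 (0.0562 to 0.0697), and Irf7 in each refit but that without vehicle replicate 3 (0.0542 to 0.0902). The list had 5, 5 and 13 calls without vehicle replicate 1, 2 or 3 and 4, 9 and 6 without combo replicate 1, 2 or 3.

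Interferon-induced GTPases, which attack the vacuoles of microbes inside cells, had the largest median among the lists of interferon response. Of 16 tested, 11 rose and 0 fell, with a median of 2.21 and a range of 1.27 to 3.32. In all 16 the combo libraries lay above the vehicle libraries, as in 17.6% of all genes tested. Gbp5, a guanylate-binding protein tied to inflammasome activity, rose from 4.71, 3.38 and 4.55 CPM to 24, 26.2 and 22.2 (2.51, SE 0.345, edgeR adjusted p = 0.00417) and was stable. Gbp2 rose from 6.69, 4.55 and 8.74 CPM to 42.8, 42.3 and 38.2 (2.62, SE 0.543, edgeR adjusted p = 0.0218). Igtp, of the immunity-related GTPases, rose from 7.83, 9.03 and 8.10 CPM to 38.3, 41.6 and 36.6 (2.22, SE 0.446). Tgtp1 had the highest value of the list, from 0.595, 0.734 and 0.350 CPM to 6.20, 4.76 and 5.84 (3.32, SE 0.893, edgeR adjusted p = 0.0472). Members of these families share sequence, and counts of one can hold reads of another. Calls in the list numbered 1, 1 and 9 without vehicle replicate 1, 2 or 3 and 1, 6 and 2 without combo replicate 1, 2 or 3. Gbp2 (edgeR adjusted p 0.0797 to 0.0973) and Igtp (0.0763 to 0.0818) lost theirs without vehicle replicate 1 or 2, or without combo replicate 1 or 3, and Tgtp1 in all 6 refits (0.0758 to 0.142).

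Sensors of nucleic acid, which are themselves interferon-induced, rose by less than the effectors. Of 19 genes of double-stranded RNA sensing tested, 10 rose and 0 fell (median 0.91). Ddx58, which encodes the sensor RIG-I, went from 51.2, 55.7 and 60.0 CPM to 111, 108 and 92.9 (0.90, SE 0.130, edgeR adjusted p = 0.0048). Eif2ak2, the kinase PKR that halts translation on binding double-stranded RNA, went from 45.5, 40.8 and 57.2 CPM to 108, 98.0 and 94.7 (1.07, SE 0.160, edgeR adjusted p = 0.00556). Both were stable. Ifih1, which encodes the long-RNA sensor MDA5, rose from 30.2, 33.2 and 35.5 CPM to 78.8, 77.6 and 74.2 (1.22, edgeR adjusted p = 0.0133), and Oas1a, which makes the second messenger that activates RNase L, by 1.58 (SE 0.258, edgeR adjusted p = 0.00776). Adar, the enzyme that edits double-stranded RNA and so hides it from the sensors, rose by 0.70 (SE 0.146, edgeR adjusted p = 0.0192). Mavs, the mitochondrial adaptor below RIG-I and MDA5, had a log2 fold change of 0.02. Ifih1 lost its call without vehicle replicate 1 or 2, or without combo replicate 1 or 3 (edgeR adjusted p 0.0537 to 0.0631), Oas1a without vehicle replicate 1 (0.0503), and Adar in every refit but that without vehicle replicate 3 (0.0555 to 0.0799). The list had 2, 4 and 10 calls without vehicle replicate 1, 2 or 3 and 3, 7 and 3 without combo replicate 1, 2 or 3. Of 7 genes of cytosolic DNA sensing, 3 rose, the related Ifi203, Ifi204 and Mndal (1.46, 1.63 and 1.13), which can share reads. In the same refits 0, 0 and 1 and 0, 1 and 0 of the 7 were called.

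The promoters of the risen genes were read for the core of the interferon-stimulated response element, the DNA element that the complex holding STAT2 and IRF9 binds. The motif searched was GAAANNGAAA, or TTTCNNTTTC on the other strand, in RefSeq windows of GRCm38.p6 from 250 bases before to 50 bases after each gene's start. It was present in 1131 of 32851 windows (3.44%). Among protein-coding genes with a window it was present for 72 of 437 that rose (16.5%), 8 of 249 that fell (3.21%) and 335 of 10136 that were not called (3.31%). By list it was present for 9 of 10 GTPases (90%), 9 of 20 antiviral effectors (45%), 6 of 14 genes of double-stranded RNA sensing (42.9%), 4 of 12 MHC class I genes (33.3%), 2 of 17 signalling genes (11.8%), 1 of 13 macrophage markers (7.69%) and 0 of 6 MHC class II genes. Of the risen genes outside the interferon lists, 48 of 392 had it (12.2%). A match describes these letters only. The upstream 250 bases are printed for 6 risen genes that differ in role and all hold a match, so these genes do not show how common it is. The bases run in the direction of transcription, with the matches in capitals. Those of Ifit1 (chr19:34640639-34640888, plus strand) hold a pair of matches near the start, and those of Isg15 (chr4:156200819-156201068, minus strand) hold 3 that overlap one another. Stat2 (chr10:128270248-128270497, plus strand), Gbp5 (chr3:142496684-142496933, plus strand), the class I light chain gene B2m (chr2:122147437-122147686, plus strand) and the cathepsin gene Ctss (chr3:95526536-95526785, plus strand) hold 1 each.
Ifit1: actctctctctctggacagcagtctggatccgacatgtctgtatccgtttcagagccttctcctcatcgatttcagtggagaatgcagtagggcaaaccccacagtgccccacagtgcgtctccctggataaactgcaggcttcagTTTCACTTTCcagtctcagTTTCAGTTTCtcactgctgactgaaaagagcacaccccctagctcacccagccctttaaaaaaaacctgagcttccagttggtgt
Isg15: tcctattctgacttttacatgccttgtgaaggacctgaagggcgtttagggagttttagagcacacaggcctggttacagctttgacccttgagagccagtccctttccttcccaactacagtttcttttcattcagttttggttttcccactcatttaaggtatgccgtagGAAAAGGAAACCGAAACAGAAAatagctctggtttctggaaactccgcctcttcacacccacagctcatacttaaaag
Stat2: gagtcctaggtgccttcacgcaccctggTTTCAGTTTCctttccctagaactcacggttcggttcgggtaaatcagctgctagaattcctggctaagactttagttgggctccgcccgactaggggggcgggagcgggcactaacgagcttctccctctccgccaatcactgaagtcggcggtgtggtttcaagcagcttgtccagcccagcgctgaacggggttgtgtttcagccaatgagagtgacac
Gbp5: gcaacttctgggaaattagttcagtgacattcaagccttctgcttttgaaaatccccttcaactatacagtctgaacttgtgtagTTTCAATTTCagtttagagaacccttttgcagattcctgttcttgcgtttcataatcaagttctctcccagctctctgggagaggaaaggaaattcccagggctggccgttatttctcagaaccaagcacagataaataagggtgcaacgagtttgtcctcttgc
B2m: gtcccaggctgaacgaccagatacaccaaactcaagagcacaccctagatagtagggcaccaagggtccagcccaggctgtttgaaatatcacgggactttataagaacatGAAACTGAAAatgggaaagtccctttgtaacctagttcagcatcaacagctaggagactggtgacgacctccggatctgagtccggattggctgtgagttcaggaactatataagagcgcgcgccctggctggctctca
Ctss: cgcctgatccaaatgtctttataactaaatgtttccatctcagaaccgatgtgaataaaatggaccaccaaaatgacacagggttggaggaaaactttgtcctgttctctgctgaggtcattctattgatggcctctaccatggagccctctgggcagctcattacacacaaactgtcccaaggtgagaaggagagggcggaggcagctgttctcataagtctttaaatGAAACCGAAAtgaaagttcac

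Genes that load and display peptides on MHC class I rose. Of 15 tested, 10 rose and 0 fell (median 0.91), where 3.30% of all genes rose. In all 15 the combo libraries lay above the vehicle libraries, as in 17.6% of all genes tested. B2m, the light chain of every class I molecule, was uneven within groups, at 269.8, 174 and 484 CPM with vehicle and 981, 727 and 1082 with combo (1.59, SE 0.342, edgeR adjusted p = 0.0247). The class I heavy chain gene H2-K1 went from 312, 314 and 400.3 CPM to 783, 769 and 715 (1.14, SE 0.230, edgeR adjusted p = 0.0189). Tap1, a chain of the peptide transporter of the endoplasmic reticulum, went from 75.7, 74.1 and 67.8 CPM to 157, 172 and 135 (1.09, SE 0.241). All 5 genes of the immunoproteasome, the interferon-induced form that cuts those peptides, rose (median 0.91), among them Psmb10 from 14.3, 12.2 and 15.2 CPM to 21.9, 29.1 and 27.2 (0.91, edgeR adjusted p = 0.013). Psmb10 lost its call without vehicle replicate 1 or 2 or combo replicate 3 (edgeR adjusted p 0.0536 to 0.0709). H2-K1 (edgeR adjusted p 0.0746 to 0.0883) and B2m (0.0855 to 0.102) lost their calls without vehicle replicate 1 or 2, or without combo replicate 1 or 3, and Tap1 in each refit but that without vehicle replicate 3 (0.0651 to 0.0964). The class I list had 0, 0 and 10 calls without vehicle replicate 1, 2 or 3 and 0, 3 and 0 without combo replicate 1, 2 or 3, and the immunoproteasome 0, 0 and 4 and 1, 4 and 0.

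MHC class II genes, which are made mainly by dendritic cells, B cells and activated macrophages, had larger differences and fewer calls. Of 9 tested, 2 rose, the peptide-exchange genes H2-DMb1 (5.21, 2.86 and 4.55 to 12.8, 18.2 and 18.8 CPM; 1.97, SE 0.473, edgeR adjusted p = 0.0319) and H2-DMa (1.42, SE 0.366, edgeR adjusted p = 0.0412). In 8 of the 9 the combo libraries lay above the vehicle libraries, as in 17.6% of all genes tested, and the median was 1.75. H2-Ab1 stood at 102, 51.4 and 93.7 CPM with vehicle and 259, 312 and 285 with combo, a log2 difference of 1.79 that was not called (SE 0.504, edgeR adjusted p = 0.0573). The invariant chain gene Cd74 stood at 401, 190 and 355 CPM against 962, 1157 and 1062 (1.75, edgeR adjusted p = 0.067), and Ciita, the master regulator of class II, had 1.36 (edgeR adjusted p = 0.118). Vehicle replicate 2 was the lowest library for H2-Ab1, Cd74 and H2-DMb1. DESeq2 called 6 of the 9 and edgeR on the 6 p53ERTAM libraries alone called 7. Neither H2-DMb1 (edgeR adjusted p 0.0716 to 0.128) nor H2-DMa (0.0839 to 0.163) kept its call without vehicle replicate 1 or 2 or any combo replicate.

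Macrophage genes rose in parallel. In bulk RNA, more macrophages and more of these RNAs per macrophage cannot be told apart, and the same holds for every cell type named here. Of 18 macrophage markers tested, 13 rose and 0 fell (median 1.30). Their summed level was 1214, 1158 and 1297 CPM with vehicle and 2730.3, 2320 and 3229 with combo. Csf1r, the receptor on which macrophages depend for survival, went from 102, 73.0 and 110 CPM to 240, 214 and 274 (1.35, SE 0.220, edgeR adjusted p = 0.00877). C1qa, a chain of the complement starter C1q, went from 95.1, 89.5 and 93.7 CPM to 279, 249 and 321 (1.61, SE 0.240, edgeR adjusted p = 0.00626). Apoe, a lipid carrier abundant in tissue macrophages, went from 252, 227 and 263 CPM to 574, 490 and 681 (1.23, SE 0.181, edgeR adjusted p = 0.00547). These 3 genes were stable, and combo replicate 2 was the lowest of the 3 combo libraries for each. Adgre1, which encodes the F4/80 antigen, rose from 37.2, 33.9 and 40.3 CPM to 89.3, 63.9 and 97.7 (1.17, edgeR adjusted p = 0.0189), a call lost without vehicle replicate 1 or 2, or without combo replicate 1 or 3 (0.0734 to 0.0894).

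Not every macrophage marker was called. Lyz2, lysozyme, had 0.96 (edgeR adjusted p = 0.0533), Trem2, a lipid receptor, 0.29 (edgeR adjusted p = 0.605), and Cd14, the lipopolysaccharide co-receptor, 0.12 (edgeR adjusted p = 0.816). Ptprc, the CD45 antigen of all white blood cells, stood at 90.2, 81.5 and 73.6 CPM with vehicle and 145, 131 and 133 with combo (0.74, SE 0.306, edgeR adjusted p = 0.161). Its groups did not overlap. DESeq2, voom and edgeR on the 6 p53ERTAM libraries each called 15 of the 18 macrophage markers higher. By edgeR the list had 5, 5 and 12 calls without vehicle replicate 1, 2 or 3 and 5, 11 and 4 without combo replicate 1, 2 or 3.

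Complement and lysosome genes, many of them abundant in macrophages, moved the same way. Of 16 complement genes tested 8 rose (median 1.29). Of 24 lysosome genes 15 rose (median 0.66). Every combo library lay above every vehicle library for 20 of the 24, and for 17.6% of all genes tested. Ctss, the cathepsin that trims the invariant chain, had 90.9, 53.7 and 92.2 CPM with vehicle and 276, 254 and 310 with combo (1.82, SE 0.265, edgeR adjusted p = 0.00556). Psap, the precursor of the saposins that present lipids to lysosomal enzymes, rose from 1086, 988 and 1171 CPM to 1765, 1793 and 1795 (0.72, SE 0.0941, edgeR adjusted p = 0.00359). Man2b1, a lysosomal mannosidase named for its small p, rose from 76.2, 58.1 and 83.5 CPM to 179, 166 and 184 (1.28, SE 0.138, edgeR adjusted p = 0.00114). All 3 were stable. Cfb, the protease of the alternative complement pathway, rose by 1.95 (SE 0.489, edgeR adjusted p = 0.0353), a call that held only without vehicle replicate 3 (0.0803 to 0.134 in the other refits). Complement calls were 2, 2 and 10 without vehicle replicate 1, 2 or 3 and 2, 6 and 2 without combo replicate 1, 2 or 3. Lysosome calls were 2, 5 and 19 and 3, 13 and 2.

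Of 24 chemokine genes tested, 10 rose and 0 fell (median 1.17). Ccl5, which draws T cells and monocytes, went from 2.43, 3.01 and 3.85 CPM to 13.1, 12.4 and 14.3 (2.10, SE 0.320, edgeR adjusted p = 0.00583). Among the ligands of CXCR3, the receptor of activated T and NK cells, Cxcl11 rose from 1.19, 1.18 and 1.63 CPM to 11.8, 13.5 and 7.61 (3.04, SE 0.441, edgeR adjusted p = 0.0051). The annotation classes Cxcl11 as a polymorphic pseudogene. Cxcl10 rose from 6.15, 4.99 and 9.56 CPM to 29.6, 39.8 and 27.1 (2.22, SE 0.472, edgeR adjusted p = 0.0228), while Cxcl9 had 11.1, 7.93 and 8.74 CPM against 73.6, 83.4 and 55.4 and was not called (2.93, SE 0.917, edgeR adjusted p = 0.0812). Cxcl16, a membrane-bound chemokine and scavenger receptor, rose from 72.7, 68.9 and 68.5 CPM to 128, 138 and 122 (0.89, SE 0.134, edgeR adjusted p = 0.00556). Ccl5, Cxcl11 and Cxcl16 were stable. Cxcl10 lost its call in each refit but that without vehicle replicate 3 (0.0584 to 0.107). List calls were 3, 3 and 9 without vehicle replicate 1, 2 or 3 and 3, 9 and 3 without combo replicate 1, 2 or 3.

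Lymphocyte markers stood higher in combo without passing the test. None of 15 T cell markers was called by edgeR (5 at an unadjusted p below 0.05, 1 called by DESeq2, 1 by voom and 5 by edgeR on the 6 p53ERTAM libraries), with a median of 1.18. Their sum was 68.0, 82.7 and 65.3 CPM against 104, 92.3 and 111. Cd3e, a chain of the T cell receptor complex, had 3.87, 2.20 and 3.79 CPM with vehicle and 6.65, 6.71 and 9.14 with combo (1.18, edgeR adjusted p = 0.245). The helper marker Cd4 had 0.644, 0.881 and 1.28 against 4.83, 4.07 and 4.08 CPM (2.21, edgeR adjusted p = 0.0852), and the killer cell marker Cd8a had 4.26, 4.26 and 1.86 against 4.75, 3.98 and 6.47, groups that overlapped (0.55, edgeR adjusted p = 0.678). The sum of NK and cytotoxic markers was 6.39, 5.29 and 6.41 CPM against 21.4, 14.8 and 18, with 0 of 9 called by edgeR (median 1.70; 5 at an unadjusted p below 0.05, 2 called by DESeq2, 1 by voom and 5 by edgeR on the 6 p53ERTAM libraries). Icos, a costimulator of activated T cells and outside these lists, rose from 0.297, 0.147 and 0.117 CPM to 1.61, 1.95 and 1.25 (3.02, SE 0.671, edgeR adjusted p = 0.0238). It kept its call only without vehicle replicate 3 (0.0585 to 0.0938 in the other refits).

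B cell markers were close to the limit of detection, with a sum of 4.36, 3.23 and 4.2 CPM against 18, 9.53 and 15. In the fit of all 12 libraries 0 of 4 were called by edgeR, DESeq2 or voom and 0 had an unadjusted p below 0.05 (median 1.77), and edgeR on the 6 p53ERTAM libraries called 2 higher (median 2.27). Neutrophil markers did not separate: their sum was 52.1, 80.0 and 87.5 CPM with vehicle and 77.2, 74.2 and 78.2 with combo, with 0 of 10 called in any of these fits, 0 at an unadjusted p below 0.05, and a median of 0.01. Among 9 dendritic cell markers, the rise was that of Itgax, which encodes CD11c and is shared with macrophages (26.6, 19.7 and 25.2 to 77.4, 80.8 and 75.5 CPM; 1.71, SE 0.193, edgeR adjusted p = 0.00146), a stable call. Among 11 immune checkpoint genes 4 rose, Lgals9, Sirpa, Cd47 and Havcr2. Lgals9, a galectin that binds TIM-3, went from 25.7, 24.2 and 38.3 CPM to 115, 91.0 and 106 (1.82, SE 0.360, edgeR adjusted p = 0.0189). Cd47, the signal against being eaten, rose by 0.55 (edgeR adjusted p = 0.0496), and its receptor on macrophages Sirpa by 0.93 (SE 0.171). Cd274, which encodes PD-L1, had 0.81 (edgeR adjusted p = 0.24). Lgals9 (edgeR adjusted p 0.0772 to 0.0869) lost its call without vehicle replicate 1 or 2, or without combo replicate 1 or 3, Sirpa (0.0629 to 0.0731) without vehicle replicate 1 or combo replicate 1 or 3, Cd47 (0.0715 to 0.196) in all refits but that without vehicle replicate 3, and Havcr2 in all 6 (0.0513 to 0.187). Without vehicle replicate 1, 2 or 3 the checkpoint calls were 0, 1 and 3, and without combo replicate 1, 2 or 3 they were 0, 2 and 0.

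Other genes that rose included Pigr, Cmklr1 and Tyrobp, Klf6 of the immediate-early list and Lpl of the adipocyte list. Pigr, the receptor that carries antibodies across epithelia and is itself interferon-inducible, went from 13, 11 and 26.8 CPM to 97.7, 104 and 93.2 (2.53, SE 0.284, edgeR adjusted p = 0.0021). Cmklr1, the receptor for the chemoattractant chemerin, went from 18.2, 16.1 and 15.2 CPM to 38.2, 40.9 and 50.8 (1.39, SE 0.141, edgeR adjusted p = 0.000935). Tyrobp, the adaptor DAP12 of myeloid receptors, went from 13.9, 11.8 and 16 CPM to 42.8, 36.5 and 56.7 (1.71, SE 0.210, edgeR adjusted p = 0.00282). Klf6, an early-response transcription factor, went from 145, 158 and 164 CPM to 289, 285 and 291 (0.89, SE 0.110, edgeR adjusted p = 0.00282). Lpl, which frees fatty acids from lipoproteins, went from 5.16, 4.84 and 8.16 CPM to 23.2, 20.4 and 27.6 (1.97, SE 0.258, edgeR adjusted p = 0.00359). All 5 were stable. The largest rises by size included the macrophage lectin gene Mgl2 (2.71, SE 0.605), the protease inhibitor gene Serpina3f (2.72, SE 0.622), the cell fusion gene Ocstamp (2.60, SE 0.652), Slamf8, a regulator of macrophage oxidase (2.58, SE 0.565), and Fam107a (2.66, SE 0.677). Mgl2, Serpina3f, Ocstamp and Fam107a kept their calls only without vehicle replicate 3 (edgeR adjusted p 0.0537 to 0.139 in the other refits), and Slamf8 lost its call without vehicle replicate 1 or 2, or without combo replicate 1 or 3 (0.0838 to 0.10).

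**Figure D2:**
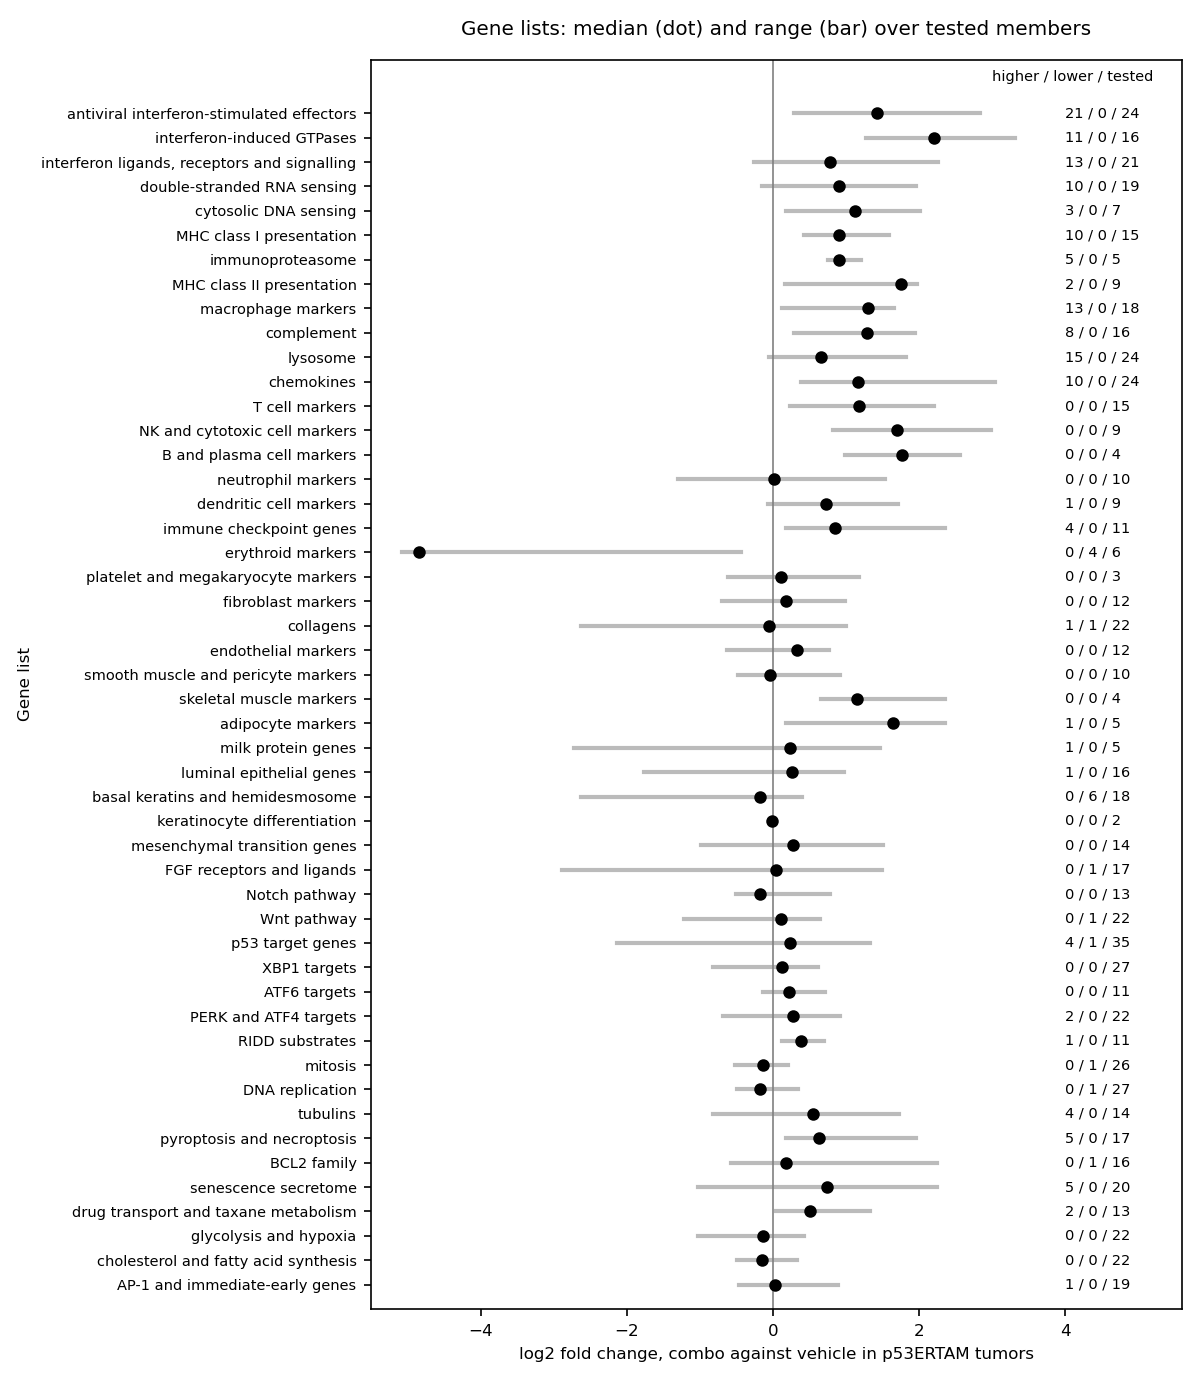
Log2 fold change of combo over vehicle in p53ERTAM tumors for each gene list, with a dot at the median of its tested members, a bar for their range and the numbers called higher and lower and tested beside it. The GTPases (median 2.21) and antiviral effectors (1.43) lie to the right and the erythroid markers (-4.84) to the far left, while mitosis (-0.13) and collagens (-0.05) sit near 0.

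The protein-coding gene of smallest p was Fgfr2, the receptor for several fibroblast growth factors in mammary epithelium, which fell. It stood at 11.1, 8.22 and 11.7 CPM with vehicle and at 1.29, 1.69 and 1.22 with combo (-2.89, SE 0.210, edgeR adjusted p = 4.52e-05), at chr7:130162451-133123350 of GRCm38. The call was stable. Of 17 genes of FGF receptors and ligands tested, Fgfr2 was the member called, and the list's median was 0.04. Fgfr1 stood at 1666, 1766 and 1477 CPM with vehicle and 1249, 1408 and 1357 with combo (-0.29, edgeR adjusted p = 0.395).

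Part of the basal program fell with it. Of 18 genes of basal keratins and hemidesmosomes tested, 6 fell and 0 rose (median -0.18). Every combo library lay below every vehicle library for 8 of the 18, and for 15.4% of all genes tested. Krt14, the keratin paired with Krt5 in basal cells, went from 24.9, 23.3 and 41.1 CPM to 6.45, 8.05 and 5.88 (-2.13, SE 0.283, edgeR adjusted p = 0.00417). Col17a1, the collagen that spans the membrane at hemidesmosomes, went from 21.4, 13.4 and 24.8 CPM to 2.01, 4.37 and 3.37 (-2.62, SE 0.390, edgeR adjusted p = 0.00663). Both were stable. Krt5 itself went from 12.6, 11.7 and 20.8 CPM to 2.26, 3.33 and 2.98 (-2.40, SE 0.632, edgeR adjusted p = 0.0468), and Trp63, the gene of p63, from 40.3, 23.2 and 40.9 to 14.5, 15.8 and 11.2 (-1.34, SE 0.234, edgeR adjusted p = 0.0116). Dsc3, a desmosomal cadherin, fell by 2.15 (SE 0.395, edgeR adjusted p = 0.0134), and Krt15 had -1.62 (edgeR adjusted p = 0.0614). Krt5 lost its call in all 6 refits (edgeR adjusted p 0.0846 to 0.178), and Trp63 (0.0586 to 0.0725) and Dsc3 (0.0607 to 0.0779) without vehicle replicate 1 or combo replicate 1 or 3. Basal calls were 2, 4 and 4 without vehicle replicate 1, 2 or 3 and 2, 4 and 2 without combo replicate 1, 2 or 3.

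Several other structural genes of epithelia were not called. The hemidesmosomal integrin genes Itga6 (1143, 1065 and 1377 CPM against 1081, 1052 and 1119; -0.14, edgeR adjusted p = 0.529) and Itgb4 (579, 616 and 663 against 613, 572 and 588; -0.07, edgeR adjusted p = 0.858) had overlapping groups. Among 16 luminal genes (median 0.26, range -1.76 to 0.98) the mucin gene Muc1 rose by 0.98 (SE 0.204). That call was lost without vehicle replicate 1 or 2, or without combo replicate 1 or 3 (edgeR adjusted p 0.0787 to 0.0863). Of the 15 luminal genes not called, 10 lay above 0 and 5 below. DESeq2 called 1 luminal gene higher and 1 lower, voom 3 and 2, and edgeR on the 6 p53ERTAM libraries 1 and 1. Krt8 stood at 113, 131 and 158 CPM against 268, 173 and 175 (0.62, edgeR adjusted p = 0.116), Krt18 had -0.02, and Epcam stood at 781, 473 and 926 against 1016, 842 and 882 (0.33, edgeR adjusted p = 0.306). Of 14 genes of mesenchymal transition, 0 were called by edgeR (3 at an unadjusted p below 0.05, 1 called by DESeq2, 3 by voom and 1 by edgeR on the 6 p53ERTAM libraries).

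**Figure D3:**
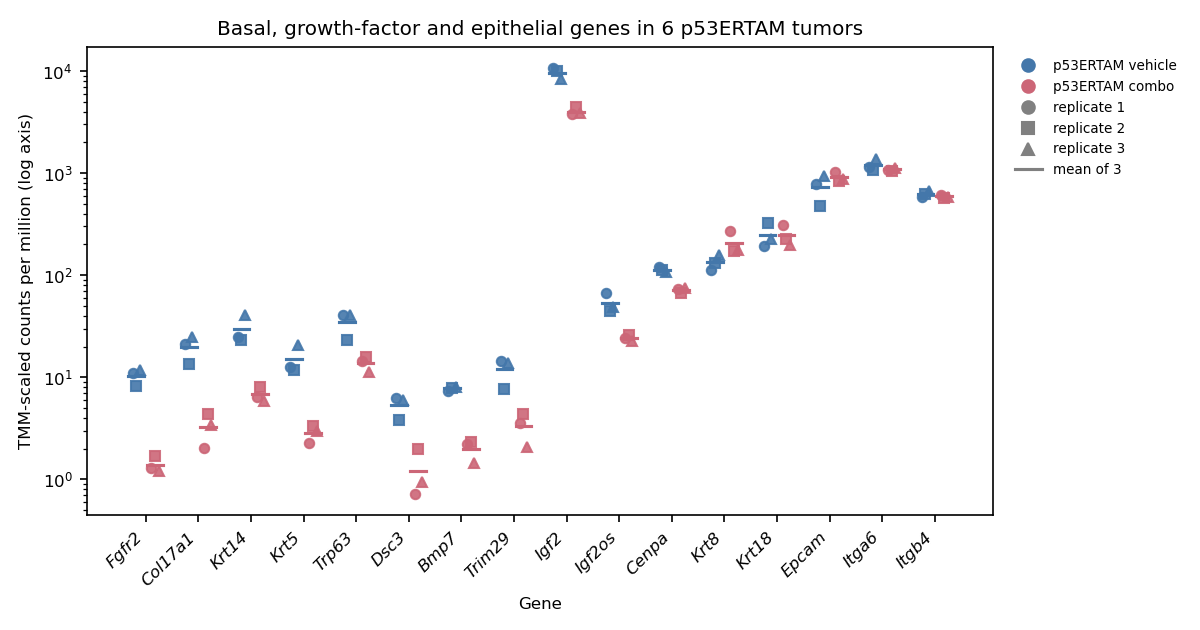
CPM on a log axis for 16 genes in the 3 vehicle and 3 combo libraries of p53ERTAM tumors, 1 point per library and a bar for each mean; the last 5 genes, Krt8, Krt18, Epcam, Itga6 and Itgb4, were not called. Fgfr2 lies at 1.22 to 1.69 CPM with combo against 8.22 to 11.7 with vehicle, and the Itgb4 points of the groups overlap.

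Other genes that fell included Bmp7, Trim29, Cenpa, Sapcd2 and Adamts18. Bmp7, a secreted growth factor of the bone morphogenetic family, went from 7.39, 7.93 and 8.04 CPM to 2.22, 2.34 and 1.45 (-1.96, SE 0.198, edgeR adjusted p = 0.000935). Trim29, a ubiquitin ligase of basal epithelia, went from 14.4, 7.71 and 13.7 CPM to 3.55, 4.33 and 2.08 (-1.86, SE 0.294, edgeR adjusted p = 0.00727). Cenpa, the histone of the centromere, went from 120, 113 and 107 CPM to 73.7, 67.5 and 75.3 (-0.65, SE 0.0970, edgeR adjusted p = 0.00556). Sapcd2, which orients the spindle, went from 21.9, 24.5 and 20.6 CPM to 10.9, 11.7 and 12.2 (-0.94, SE 0.132), and the protease gene Adamts18 from 210, 260 and 222 to 105, 124 and 135 (-0.93, SE 0.135). These 5 were stable.

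Igf2, the fetal insulin-like growth factor, made up 1.10, 1.0 and 0.847% of counts in the vehicle libraries and 0.391, 0.463 and 0.401% in combo. It fell by 1.27 (SE 0.196, edgeR adjusted p = 0.00626), a call lost without combo replicate 1 (0.0526). Its antisense gene Igf2os fell from 67.6, 44.5 and 48.4 CPM to 24.4, 25.9 and 22.6 (-1.14, SE 0.158, edgeR adjusted p = 0.00417). The strand setting of the counting is not given in the sources used here, so reads of the pair cannot be told apart. The largest falls by size, beside Fgfr2, Col17a1 and the erythroid genes, included Ltb4r2, a leukotriene receptor (-2.78, SE 0.615), Pou2af1, a transcriptional coactivator best known in B cells (-2.31, SE 0.395), its chromosomal neighbour Colca2 (-2.38, SE 0.452), and Cntfr, a cytokine receptor chain (-2.17, SE 0.428). Each of these 4 lost its call without vehicle replicate 1 or combo replicate 1 or 3, and Ltb4r2 also without combo replicate 2 (edgeR adjusted p 0.0510 to 0.108 over the 4 genes).

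Erythroid genes were the group of largest change, at low counts. Of 6 erythroid markers tested, 4 fell (median -4.84). Hbb-bs, an adult beta globin, had 65, 44 and 60 counts in the vehicle libraries and 6, 0 and 2 in combo, and its neighbour Hbb-bt, with which it shares sequence, had 16, 10 and 30 against 0, 0 and 2. Alas2, the first enzyme of heme synthesis in red cells, had 50, 118 and 102 counts against 0, 10 and 4. Slc4a1, the anion exchanger of the red cell membrane, had 20, 44 and 34 against 4, 0 and 0. Per total counts, vehicle exceeded combo 29.8-fold for Hbb-bs (95% interval 14.8 to 70.1), 39.5-fold for Hbb-bt (10.4 to 334), 27.2-fold for Alas2 (15.9 to 50.4) and 34.5-fold for Slc4a1 (13.1 to 129). These exact intervals cover counting error only. The alpha globin genes Hba-a1 and Hba-a2 had 1 count each, both in vehicle replicate 1, and the receptors Epor (-0.82) and Tfrc (-0.43), which other cells also make, were not called. By edgeR, Hbb-bs lost its call without combo replicate 3 (adjusted p = 0.0592), Slc4a1 without vehicle replicate 2 or combo replicate 3 (0.0657 to 0.0871), Alas2 without vehicle replicate 2 or combo replicate 1 or 3 (0.0603 to 0.0886), and Hbb-bt in each refit but that without vehicle replicate 3 (0.0631 to 0.112). Erythroid calls were 3, 1 and 4 without vehicle replicate 1, 2 or 3 and 2, 3 and 0 without combo replicate 1, 2 or 3.

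The other large group that fell was not protein-coding. Of 1146 TEC genes, an annotation class of transcribed stretches awaiting experimental support, 129 fell and 0 rose, with a median of -0.96. Of 181 sense-intronic genes, RNAs annotated within introns, 25 fell (median -1.08), and of 101 small nucleolar RNA genes 7 fell (median -0.78). TEC genes held 0.659, 0.890 and 0.427% of counts with vehicle and 0.324, 0.402 and 0.267% with combo, and sense-intronic genes 0.0891, 0.115 and 0.0568% against 0.0418, 0.0532 and 0.0352%. For both classes the highest library was vehicle replicate 2 and the lowest vehicle library was close to the highest combo library. The protein-coding share of vehicle replicate 2, given above, was the lowest of the 6. Without vehicle replicate 2 the TEC median was -0.68 and 2 TEC genes fell. Without vehicle replicate 1 or 3, 5 and 323 fell, and without combo replicate 1, 2 or 3, 0, 49 and 0.

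Single noncoding RNAs moved with the same libraries. Gm42418, which overlaps sequence of ribosomal RNA, held 0.656, 1.51 and 0.373% of counts with vehicle and 0.274, 0.265 and 0.175% with combo, and Malat1, a nuclear noncoding RNA, 1.36, 2.43 and 1.02% against 0.857, 0.951 and 0.804%. Lars2, the mitochondrial leucyl-tRNA synthetase gene and a protein-coding one, followed the order of Gm42418 among the vehicle libraries, at 672, 1492 and 294 CPM against 212, 184 and 155 (-2.16, SE 0.436, edgeR adjusted p = 0.0205). It kept its call only without vehicle replicate 3 (0.0585 to 0.108 in the other refits). The mitochondrial genome held 1.82, 1.85 and 1.84% against 1.80, 1.73 and 1.75%. What part the make-up of these libraries has in the fall of noncoding genes was not tested. With protein-coding genes alone in scaling and test, 511 rose and 461 fell (52.6% higher), where protein-coding genes in the full fit gave 571 and 310 (64.8% higher).

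**Figure D4:**
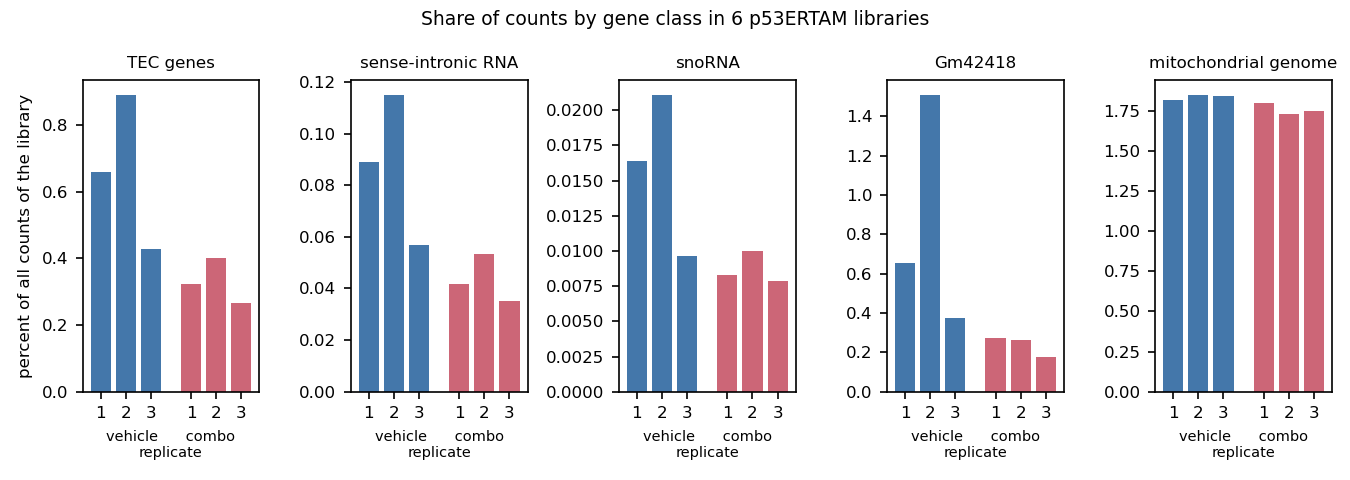
Share of each library's counts, in percent, held by TEC, sense-intronic and small nucleolar RNA (snoRNA) genes, by Gm42418 and by the mitochondrial genome in the 6 p53ERTAM libraries, 1 bar per library, each panel with its own axis from 0. Vehicle replicate 2 has the highest TEC share (0.890%) and vehicle replicate 3 (0.427%) lies closest to the combo libraries, while the mitochondrial share stays between 1.73 and 1.85%.

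Neither Ern1 nor Xbp1 was called. Ern1, which encodes IRE1α, stood at 71.6, 78.6 and 72.1 CPM with vehicle and 77.0, 79.2 and 74.2 with combo (0.05, edgeR adjusted p = 0.793). Xbp1, the mRNA that IRE1α splices, stood at 94.3, 104 and 128 CPM against 130, 134 and 133 (0.29, edgeR adjusted p = 0.469). Gene-level counts do not show splicing. Of 27 XBP1 targets and 11 ATF6 targets, 0 were called by edgeR (medians 0.13 and 0.22; 5 and 4 at an unadjusted p below 0.05). DESeq2 called 2 XBP1 targets higher and 1 lower and 3 ATF6 targets higher, voom 5, 1 and 4, edgeR on the 6 p53ERTAM libraries 1, 1 and 1, and edgeR without vehicle replicate 3 gave 3 higher in each list. RIDD substrates are mRNAs that IRE1α cleaves and so sends to decay. All 11 lay above 0 (median 0.38, range 0.13 to 0.69) and 1 was called, Tapbp, which is also an MHC class I loading gene (253, 268 and 257 to 421, 461 and 377 CPM; 0.69, SE 0.171, edgeR adjusted p = 0.0334). Tapbp lost its call in every refit but that without vehicle replicate 3 (0.0887 to 0.113), where 2 RIDD substrates were called, and voom called 4. The chaperone gene Hspa5 had 0.23. Of 22 PERK and ATF4 targets 2 rose (6 higher and 1 lower by DESeq2, 9 and 1 by voom), the cystine transporter gene Slc7a11 (15.3, 13.1 and 15.2 to 30.0, 28.4 and 23.5 CPM; 0.91, SE 0.226, edgeR adjusted p = 0.0339) and the alanyl-tRNA synthetase gene Aars (52.7, 53.3 and 53.6 to 86.7, 91.2 and 85.6 CPM; 0.72, SE 0.137, edgeR adjusted p = 0.0144). Slc7a11 kept its call only without vehicle replicate 3 (0.0827 to 0.142 otherwise), and Aars only without vehicle replicate 3 or combo replicate 2 (0.0524 to 0.0694 otherwise).

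Docetaxel binds beta tubulin. Of 14 tubulin genes tested, 4 rose (median 0.55), where 3.30% of all genes did. Tubb2a went from 14.2, 13.5 and 16.4 CPM to 32.5, 28.3 and 35.0 (1.12, SE 0.147, edgeR adjusted p = 0.00361), a stable call. Tuba1a (0.94, edgeR adjusted p = 0.0308), Tuba4a (0.65) and Tubb4b (0.58) rose too, and Tubb5 had 0.29. Tuba1a lost its call without vehicle replicate 1 or 2, or without combo replicate 1 or 3 (edgeR adjusted p 0.107 to 0.122), and Tuba4a and Tubb4b kept theirs only without vehicle replicate 3 (0.0687 to 0.174 otherwise). Tube1, which encodes epsilon tubulin of centrioles, stood at 10.7, 13.9 and 7.11 CPM against 5.24, 6.5 and 6.12 (-0.83, edgeR adjusted p = 0.0515), and was called lower by DESeq2, by voom and without vehicle replicate 3. Without vehicle replicate 1, 2 or 3, 1, 1 and 6 tubulins were called higher, and 1, 3 and 1 without combo replicate 1, 2 or 3. Of 26 mitosis genes Cenpf, a kinetochore protein of dividing cells, fell by 0.49 (edgeR adjusted p = 0.0257, median of the list -0.13). Of 27 replication genes Pola1, a subunit of the priming polymerase, fell by 0.50 (edgeR adjusted p = 0.0492, median -0.17). With 1 call each, both lists were close to the 2.98% of all genes tested that fell. DESeq2 called 3 mitosis and 3 replication genes lower, voom 11 and 5, and edgeR on the 6 p53ERTAM libraries 1 and 1, with 0 higher in each. Cenpf kept its call only without vehicle replicate 3 (0.0585 to 0.135 otherwise) and Pola1 in none of the 6 refits (0.0512 to 0.215). Without vehicle replicate 3, 4 mitosis genes fell. The proliferation marker Mki67 had -0.11. Of 13 genes of drug transport and taxane metabolism 2 rose, Ephx1, described among the p53 targets, and the efflux pump gene Abcc3. Abcc3 went from 14.1, 19.2 and 20.9 CPM to 39.4, 36.2 and 41.2 (1.11, SE 0.246, edgeR adjusted p = 0.0236). It lost its call without vehicle replicate 1 or 2, or without combo replicate 1 or 3 (0.0819 to 0.0965). Leaving out 1 of the 6 libraries gave 1 to 3 calls in this list.

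Of 35 p53 target genes tested, 4 rose and 1 fell (median 0.24), where 3.30% of all genes rose and 2.98% fell. DESeq2 called 7 of the 35 higher and 1 lower, voom 11 and 3, and edgeR on the 6 p53ERTAM libraries 7 and 1. Ccng1, cyclin G1, stood at 67.0, 62.0 and 75.0 CPM with vehicle and 122, 132 and 128 with combo (0.90, SE 0.118, edgeR adjusted p = 0.00359). Ephx1, an epoxide hydrolase, stood at 18.5, 16.9 and 30.8 CPM against 53.6, 52.9 and 60.3 (1.33, SE 0.185, edgeR adjusted p = 0.00417). Both were stable. The death receptor gene Fas rose from 6.20, 6.46 and 6.18 CPM to 12.3, 11.5 and 12.9 (0.96, SE 0.235, edgeR adjusted p = 0.0322), the xylulose reductase gene Dcxr rose by 1.14 (SE 0.231), and the microtubule-associated gene Psrc1 fell by 0.60 (SE 0.152, edgeR adjusted p = 0.037). Cdkn1a, which encodes p21, had 92.2, 158 and 117 CPM against 175, 200 and 167 (0.57, edgeR adjusted p = 0.294), and Mdm2 had 0.08. Fas (0.0647 to 0.137) and Psrc1 (0.0770 to 0.174) kept their calls only without vehicle replicate 3, and Dcxr only without vehicle replicate 3 or combo replicate 2 (0.0751 to 0.0891 otherwise). The list had 2, 2 and 4 rises without vehicle replicate 1, 2 or 3 and 2, 3 and 2 without combo replicate 1, 2 or 3. Of 17 genes of pyroptosis and necroptosis 5 rose, Casp1, Casp4, Pycard, Zbp1 and Naip2, a sensor of bacterial proteins (3.47, 2.57 and 7.05 to 14.1, 14.9 and 13.8 CPM; 1.70, SE 0.400, edgeR adjusted p = 0.0293), a call kept only without vehicle replicate 3 (0.0649 to 0.114 otherwise). The list had 0, 0 and 6 calls without vehicle replicate 1, 2 or 3 and 0, 3 and 0 without combo replicate 1, 2 or 3. The necroptosis genes Ripk3 (0.27) and Mlkl (0.44) were not called.

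The structural stroma showed few calls. Of 12 fibroblast markers (median 0.18), 12 endothelial markers (0.33) and 10 smooth muscle and pericyte markers (-0.04), 0 were called by edgeR. At an unadjusted p below 0.05 there were 1, 0 and 4 of these, DESeq2 called 1, 0 and 2, voom 3, 1 and 4, and edgeR on the 6 p53ERTAM libraries 0, 1 and 2. Among 22 collagens Col14a1, a fibril-associated collagen, rose from 22.7, 19.4 and 14.6 CPM to 43.6, 28.2 and 41.5 (1.0, SE 0.249, edgeR adjusted p = 0.0355) and Col17a1 fell. Col14a1 kept its call only without combo replicate 2 (0.0661 to 0.141 otherwise). Col1a1, the main collagen of fibroblasts, stood at 774, 2288 and 748 CPM with vehicle and 960, 659 and 790 with combo, so vehicle replicate 2 held the highest level of the 6.

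Whether combo acted differently with p53ERTAM and with EV was tested as the difference of the combo effects in 1 fit. The difference was called for 6473 genes (36.0%), with the effect larger in p53ERTAM tumors for 3377 (18.8%) and lower for 3096 (17.2%). Larger and higher, like smaller and lower, refer here to the signed log2 value. An effect called larger can thus be a weaker fall. Of the 593 genes that rose in p53ERTAM tumors, 469 had a larger and 2 a smaller combo effect there than in EV tumors. Of the 536 that fell, 425 had a lower and 10 a higher effect. The difference and the calls use the same 6 p53ERTAM libraries, so these counts describe the called genes and are no separate evidence. The EV combo libraries stood apart, with 10.7 to 11.1% of their counts in the noncoding gene Gm26917 and 80.9 to 81.7% in protein-coding genes. What part this has in the differences was not tested.

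The 5 interferon lists had medians from -0.195 to 0.163 in EV tumors. The antiviral effectors had a median of -0.09 there, against 1.43 in p53ERTAM tumors, and the effect was larger in p53ERTAM tumors for 17 of 24 and smaller for 0. Over all genes tested the effect was larger there for 18.8% and smaller for 17.2%. For Ifit1 the effects were 2.30 in p53ERTAM and -0.24 in EV tumors, a difference of 2.54 (edgeR adjusted p = 0.000405). For Mx1, a GTPase against influenza virus, they were 1.51 and 0.88, a difference of 0.63 that was not called (edgeR adjusted p = 0.375), and for Adar 0.70 and 0.47 (difference 0.23, edgeR adjusted p = 0.400). In p53ERTAM tumors Mx1 kept its call only without vehicle replicate 3 (0.0682 to 0.126 otherwise). Double-stranded RNA sensing, with the EV median of 0.163, had 5 genes higher and 2 lower in EV tumors, and the effect was larger in p53ERTAM tumors for 9 of 19 and smaller for 2. The GTPases had an EV median of -0.01 with 11 of 16 larger in p53ERTAM tumors, and MHC class I genes -0.49 with 12 of 15. Macrophage markers had -0.13 with 12 of 18, and lysosome genes -0.45 with 20 of 24.

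For some genes the effect of combo differed between the vectors. Ccng1 rose by 0.90 in p53ERTAM tumors and had -0.89 in EV tumors (difference 1.80, edgeR adjusted p = 0.000146). Xbp1 had 0.29 and -1.10 (difference 1.38, edgeR adjusted p = 0.00609). Of 27 XBP1 targets, 0 were called in p53ERTAM tumors (median 0.13), while 19 were lower in EV tumors (median -0.519). The signed effect was higher in p53ERTAM than in EV tumors for 14 of the 27. Fgfr2 fell in p53ERTAM tumors and had 0.02 in EV tumors (difference -2.90, edgeR adjusted p = 0.000146). Of 18 basal genes 8 had a lower effect in p53ERTAM tumors and 2 a higher one, where 17.2 and 18.8% of all genes tested did. The collagens had a median of 1.45 in EV tumors and -0.05 in p53ERTAM tumors, with 16 of 22 lower in the latter. Other genes moved alike as far as the test could tell. Igf2 fell by 1.27 in p53ERTAM and had -0.97 in EV tumors (difference -0.30, edgeR adjusted p = 0.419), and Tubb2a rose by 1.12 and had 0.59 (difference 0.53, edgeR adjusted p = 0.0585). A p above the threshold does not show that these effects were equal.

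**Figure D5:**
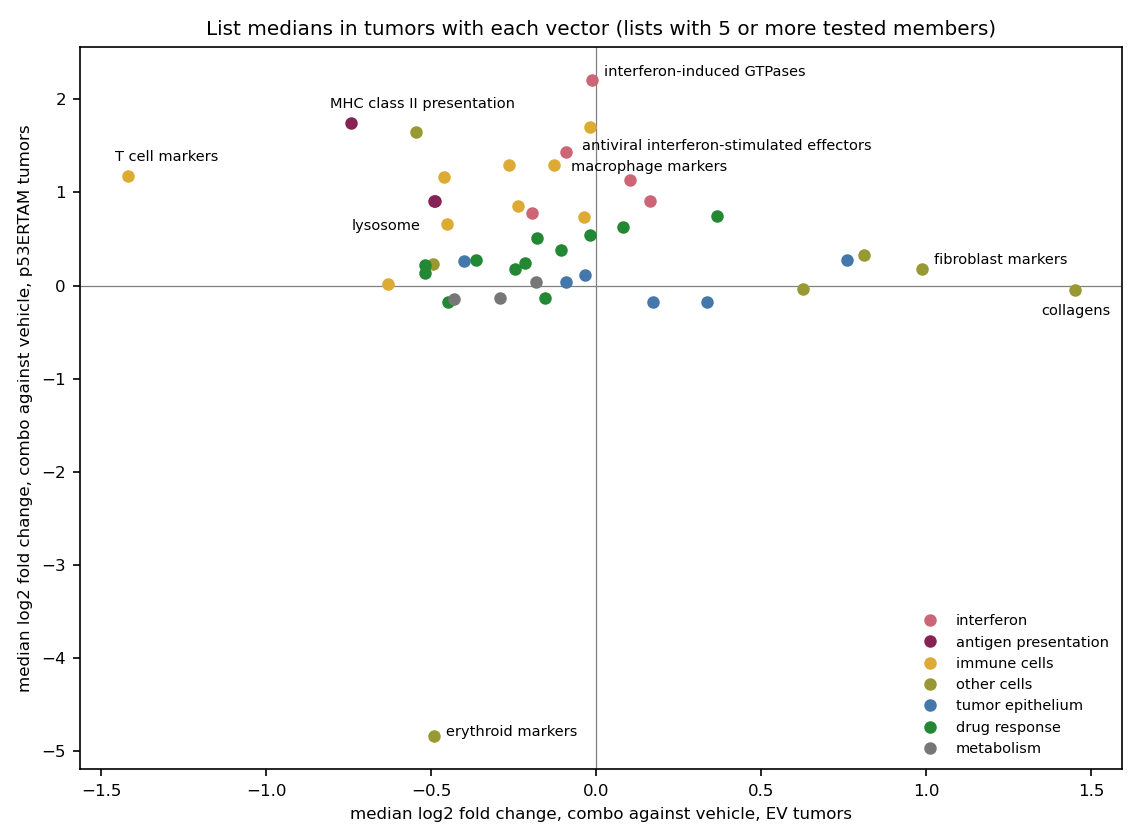
Median log2 fold change of combo over vehicle for 45 gene lists with at least 5 tested members, EV tumors on the x axis and p53ERTAM tumors on the y axis, with grey lines at 0 and each point coloured by the kind of list. The antiviral effectors lie at -0.09 in EV and 1.43 in p53ERTAM tumors, and the collagens at 1.45 and -0.05.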

How the data were processed

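Bulk RNA of tumors was sequenced in 12 libraries, 3 in each of 4 groups taken from the sample titles. RNA from a Direct-zol kit was made into stranded total RNA libraries after removal of ribosomal RNA, per the labels' protocols. Per the submitters' processing notes, reads went through FastQC, fastp, STAR and featureCounts on GRCm38.p5; tool versions, the annotation release and the counting's strand setting are not given in the sources used here. The deposited files give unnormalized counts for each gene in the featureCounts layout, per the file headers. Of 52636 gene identifiers, 52403 were matched to a symbol in a mouse gene annotation. In the p53ERTAM libraries 68.2 to 70.3% of the counts from 1 to 20 were even numbers. If read pairs were counted mate by mate, counting intervals are too narrow, which was not tested.

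Of 31622 genes with a count, 17970 passed edgeR's filterByExpr, which kept at least 99.8% of the counts of every library. The 12 libraries were fitted in 1 model of 4 group means (edgeR 4.0.16 under R 4.3.3, TMM factors 0.941 to 1.05, robust quasi-likelihood F-test, 8 residual degrees of freedom, biological coefficient of variation 0.221), with Benjamini-Hochberg adjustment over all genes tested. CPM are counts per 1000000 of the TMM-scaled library. The fit was tested on data simulated with its own dispersions, which did not hold the differences in make-up between libraries. Alternatives were DESeq2 1.42.0, limma 3.58.1 voom with quality weights, other scaling and filters, subsets of libraries and the loss of each library.

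The comparison, the 49 gene lists (792 genes, 707 tested) and the rule for named genes were chosen with earlier results of these data known. Named genes are Trp53, Esr1, Cdkn1a, Mdm2, Xbp1 and Ern1; up to 12 protein-coding genes per direction of largest fold change among called genes without overlap and with at least 1 CPM; the 10 of smallest p per direction; and up to 4 called members of each list with its defining genes. Other genes named, among them Gm42418, Malat1, Lars2 in its link to Gm42418, Gm26917, Igf2os and Trim29, were chosen after their values were seen. Lists are described by counts and medians, with no set test. Counts of paralogs can include reads of one another. Promoter windows were read from RefSeq on GRCm38.p6. Values of 2 listed genes are not reported here.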

Additional observations from a re-analysis of the deposited data

Results flagged for a closer look

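The effect of combo differed between p53ERTAM and EV tumors, by the test of the difference itself, for 6473 genes, and among these were 37 of 47 genes named for their size, their p or their role. All differences here are log2 values of the combo effect in p53ERTAM tumors minus that in EV tumors. The EV combo libraries differ in make-up from the other 9 libraries, and what part that has was not tested.

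Among genes of interferon response and immunity the difference was 4.16 for Tgtp1, 2.86 for Iigp1, 2.48 for Gbp2, 2.28 for Gbp5, 3.31 for Ifit3b, 2.54 for Ifit1 and 0.95 for Stat2. It was 4.34 for Icos, 2.51 for Slamf8, 1.69 for Itgax, 2.0 for Tyrobp and 1.49 for Cmklr1. Of the other genes that rose in p53ERTAM tumors, Serpina3f had 3.24, Ocstamp 2.98, Pigr 2.74, Man2b1 1.38, Psap 1.2, Klf6 1.28 and Ccng1 1.80. Xbp1, which was not called in p53ERTAM tumors, had 1.38.

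Among genes that fell in p53ERTAM tumors the difference was -5.09 for Hbb-bt, -3.96 for Hbb-bs, -4.41 for Alas2 and -4.52 for Slc4a1, all at low counts. It was -2.90 for Fgfr2, -3.04 for Col17a1, -3.22 for Krt5, -2.33 for Krt14, -1.65 for Bmp7, -2.69 for Ltb4r2, -1.79 for Cntfr and -2.52 for Lars2. Smaller differences were -1.07 for Sapcd2, -1.14 for Adamts18, -0.90 for Zbtb26, -0.72 for Cenpa and -0.53 for Fgd1.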

How the results depend on the processing

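The counts of genes higher and lower depended on the libraries and on the test. Leaving out 1 of the 6 libraries gave 63 to 984 higher and 14 to 1146 lower, against 593 and 536. DESeq2 called 1077 and 1129, voom with quality weights 1876 and 1893, edgeR on the 6 p53ERTAM libraries alone 1068 and 822, edgeR without the EV combo libraries 378 and 249, and edgeR against a fold of 1.5 gave 13 and 6. More genes were lower than higher with DESeq2, with voom and without vehicle replicate 3. DESeq2 size factors (589 and 539), no filter (671 and 585), a stricter filter (632 and 591) and protein-coding genes alone (511 and 461) changed these counts by less. With the replicate number as a replicate block edgeR called 593 and 541, of which 877 were among the 1129. In p53ERTAM tumors, deviations of same-numbered libraries from their group means correlated at -0.127, 0.216 and 0.399. Vehicle replicates 2 and 3 correlated best with the combo library of their own number, and vehicle replicate 1 with combo replicate 2 (0.288). Deviations from means of 3 libraries cannot settle whether the numbers pair the samples. For genes whose combo effect differs between p53ERTAM and EV tumors, protein-coding genes alone gave 4086 genes against 6473, and the other alternatives 4901 to 7230. The cause of these shifts was not tested. Of 49 list medians 10 changed sign in at least 1 alternative. All 10 lay within 0.236 of 0, among them the milk protein genes (0.236, and -0.258 with the stricter filter), collagens (-0.0526, and 0.239 without vehicle replicate 2), smooth muscle markers (-0.0359, and up to 0.306), glycolysis (-0.133, and 0.0797 by voom) and FGF genes (0.041, and down to -0.149). Of the 119 named genes 113 were called. None of the 113 changed sign in the alternatives run, and 38 kept the call without each of the 6 libraries in turn. Depth limits the interferon ligands, B cell and NK cell genes and globins, where most libraries hold few counts.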

Other observations

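Members of 3 further gene families rose in p53ERTAM tumors given combo, where 3.30% of all genes tested rose; these families were chosen after their values were seen. Of 12 Toll-like receptor genes, whose proteins sense microbial lipids and nucleic acids, 8 rose and 0 fell (median log2 fold change 1.23, range 0.53 to 1.72). Tlr2, which binds bacterial lipoproteins, stood at 18.3, 14.8 and 21.1 CPM with vehicle and 45.4, 43.9 and 46.2 with combo (1.32, edgeR adjusted p = 0.00729), and kept its call without each library in turn. Tlr9, which senses DNA, stood at 5.45, 3.82 and 5.36 CPM against 15, 15.2 and 18 (1.72, edgeR adjusted p = 0.0168), a call lost without vehicle replicate 1 or 2, or without combo replicate 1 or 3 (0.0616 to 0.0779). Of 6 Fc receptor genes, which bind antibodies, 5 rose (median 1.57), with Fcgr3 at 17.7, 20.5 and 23.4 CPM against 66.1, 48.4 and 78.7 (1.65, edgeR adjusted p = 0.00626). Clec7a, the receptor Dectin-1 for fungal glucans, stood at 4.81, 6.31 and 8.22 CPM against 25.7, 30.1 and 26.2 (2.09, edgeR adjusted p = 0.00443). Fcgr3 and Clec7a kept their calls without each library in turn. Of 8 Schlafen genes, a family induced by interferon, 4 rose (range -0.52 to 1.44). Most of these calls hung on single libraries. Without vehicle replicate 1, 2 or 3 the Toll-like receptor calls were 1, 2 and 7, those of Fc receptors 1, 2 and 5 and those of Schlafen genes 0, 2 and 5. Without combo replicate 1, 2 or 3 they were 1, 6 and 1, then 1, 5 and 1, and 0, 3 and 0.

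Both parts of telomerase fell. Terc, its RNA, stood at 61.4, 106 and 42.7 CPM with vehicle and 18.8, 22.7 and 17.6 with combo (-1.83, edgeR adjusted p = 0.0111), a call lost without combo replicate 1 or 3 (0.0629 to 0.0664). Tert, its reverse transcriptase, stood at 39.3, 55.1 and 26.1 CPM against 16.3, 22.4 and 16.7 (-1.12, edgeR adjusted p = 0.0151), a call lost without vehicle replicate 1 or 2, or without combo replicate 1 or 3 (0.0536 to 0.0853). For both genes vehicle replicate 2 was the highest library, the one with the lowest protein-coding share, and what part that has was not tested. In EV tumors Tert had 1.14, and the difference between the vectors was -2.25 (edgeR adjusted p = 0.00042).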
